A study of Mus musculus with 8 samples.

Results

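Genes that mark T cells and natural killer (NK) cells, their cytotoxic products and the checkpoint receptors that tune T cell activity were examined in mouse mammary tumours with and without FGFR1, a receptor tyrosine kinase for fibroblast growth factors. The set was a named list of 36 genes, matched to probes through RefSeq accessions, out of 21368 genes with a named probe on the array. All 36 had a probe, 46 probes in all, and 29 genes had a probe bright enough to be tested. The other 7 were Pdcd1, Lag3, Havcr2, Tigit, Gzmb, Klrd1 and Klrk1.

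Total RNA came from 8 breast tumours of mice on the FVB strain background. The 4 samples named FGFR1 KO were described as K19-tva/fgfr1loxP/loxP mice, and the 4 WT controls as K19-tva mice, so both groups carried K19-tva. The floxed Fgfr1 allele had been moved into FVB from ICR mice by backcrossing. The agent that deleted the floxed gene, the cells in which it acted, the mice's ages and whether each tumour came from its own animal are not stated in the labels used here. P-values therefore measure only the spread between these samples. Each tumour was hybridised to 1 two-colour array with mouse probes, read in red against Universal Human Reference RNA in green, and every value below is the log2 of red over green unless said otherwise. Such a ratio compares arrays for 1 probe and is not a level that can be set against another gene's.

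T cells recognise antigen through a receptor whose signal passes through the CD3 chains (Cd3d, Cd3e, Cd3g and the zeta chain Cd247) to the kinases Lck and Zap70 and the adaptor Lat. CD4 and CD8 are co-receptors that mark helper and cytotoxic T cells, Foxp3 defines regulatory T cells, and Cd28 and Icos give co-stimulation where Ctla4, Pdcd1, Lag3, Havcr2 and Tigit restrain it. Cytotoxic T cells and NK cells kill with perforin (Prf1) and granzymes. NK cells read their targets through receptors such as Ncr1, Klrb1c and Klrk1, and the T-box factors Eomes and Tbx21 direct their programme. In a tumour these RNAs come mostly from infiltrating lymphocytes, so in bulk RNA fewer such cells and less RNA per cell cannot be told apart.

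The arrays differed in ways that touch these genes. In red, 68.9 to 83.9% of spots were well above background on the FGFR1 KO arrays and 43.9 to 69.2% on the WT arrays, with WT 1 at 43.9%. All FGFR1 KO arrays lay in slide row 1 and all WT arrays in row 2, so genotype and slide row cannot be told apart. An area of the array (rows 97 to 336, columns 83 to 164) was bright in red on WT 1 and WT 3, where negative control spots stood 35.5 and 41 intensity units above local background against 0 to 6.25 on the other arrays. WT 2 and WT 1 stood apart from the rest, with mean correlations to the other arrays of 0.379 and 0.598 against 0.633 to 0.713. Skeletal muscle genes read highest on WT 2 (a median of 8.43) and next highest on WT 1 (1.77), against -0.48 to 0.41 elsewhere. Adipocyte genes were high on both WT 2 (3.79) and WT 1 (2.68). The brightest of 3 probes for Fgfr1 read 0.31 ± 0.11 in FGFR1 KO and 0.31 ± 0.06 in WT (SD, n = 4 each), and none of the 3 was called. Where these probes lie relative to the floxed part is not given here, so they do not check the genotype.

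No T cell, NK cell or checkpoint gene passed the test between the genotypes. Of the 29 member genes tested, 0 passed limma's test at an adjusted p of 0.05, where 4 of 39795 probes (0.0101%) did over the whole array, and the smallest adjusted p was 0.554, for Icos. At an unadjusted p under 0.05, 2 members were lower in FGFR1 KO (Icos and Ncr1) and 0 were higher, against 4.78% and 3.1% of all genes tested. The same 2 genes were lower on every FGFR1 KO array than on any WT array and 0 were higher throughout, against 2.5% and 1.85% of all genes. A log2 difference below 0 was seen for 20 of 29 members, with a median of -0.10, against 50.4% of all genes.

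That lean towards WT was lost without 1 tumour, and also when the reference channel was left out. WT 1 was the highest of the 8 arrays for 17 of the 29 members, against 11.9% of all genes tested. No other array was highest for more than 4 members. Without WT 1, 13 of 29 members lay below 0 (all genes, 50.2%) and their median difference was 0.04. In that fit 2 members had an unadjusted p under 0.05, both lower in FGFR1 KO (Gzma and Ncr1), and 0 were higher, against 4.17% and 2.15% of all genes. Leaving out both WT 1 and WT 2 gave 16 of 29 below 0 and a median of -0.01. When all 8 arrays were kept and the red signal was used alone, scaled to each array's 75th percentile, 12 of 29 members lay below 0, their median was 0.06 and WT 1 was the highest array for 11. On that scale the median of all genes was 0.10 and 6611 of 16761 genes lay below 0.

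**Figure D1:**
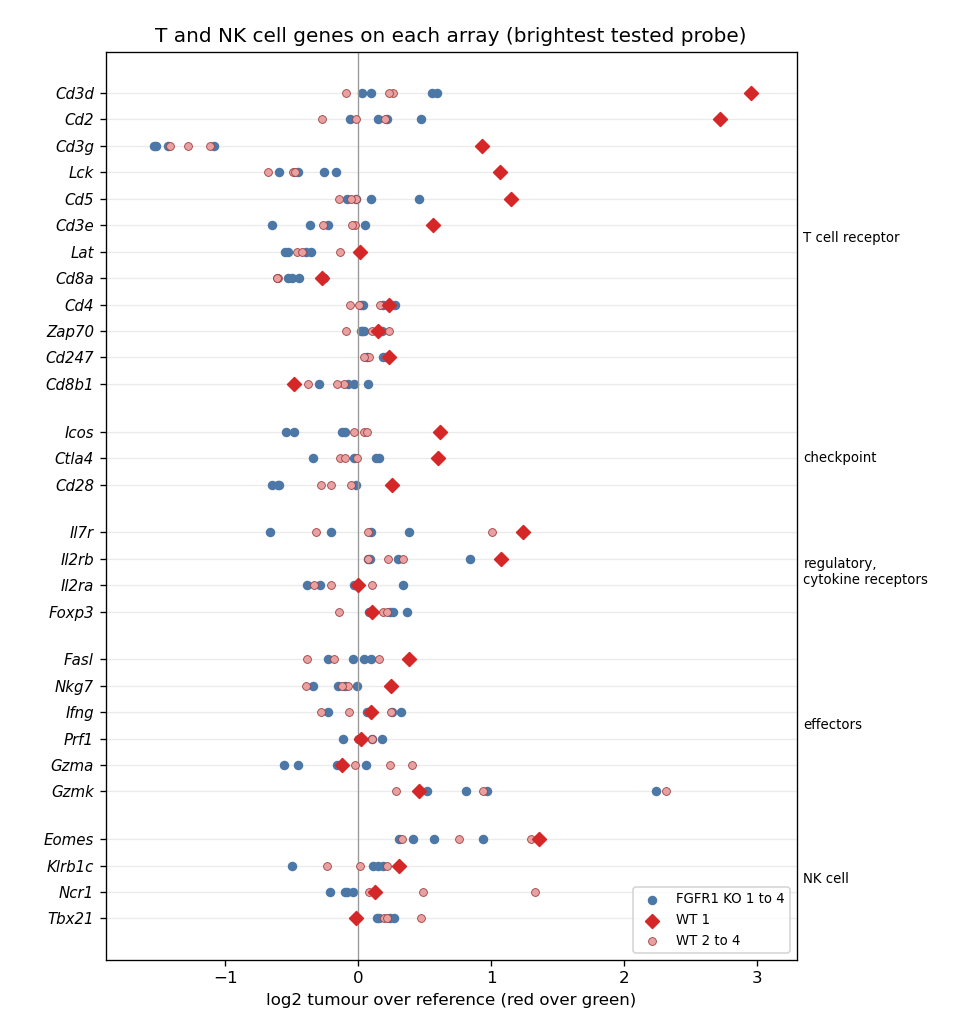
Log2 tumour over reference for the brightest tested probe of each of the 29 genes (rows) on each array, with FGFR1 KO and WT arrays in different colours and WT 1 marked apart. WT 1 lies far to the right for Cd3d, Cd2, Cd3g and Lck, while the other 7 arrays overlap.

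The T cell receptor genes showed this most. Cd3d, the delta chain of CD3, read 0.09, 0.03, 0.56 and 0.59 on FGFR1 KO arrays 1 to 4 and 2.95, -0.09, 0.27 and 0.23 on WT arrays 1 to 4. WT 1 stood alone, and the other WT arrays lay among or below the FGFR1 KO arrays. The gamma chain Cd3g read -1.54, -1.09, -1.43 and -1.52 in FGFR1 KO and 0.93, -1.11, -1.42 and -1.28 in WT, where again 1 array set the WT mean. Cd2, an adhesion receptor of T and NK cells, read -0.06, 0.22, 0.15 and 0.47 against 2.72, -0.02, -0.27 and 0.20. Lck, the kinase that starts receptor signalling, read -0.17, -0.45, -0.26 and -0.60 against 1.07, -0.68, -0.49 and -0.48. These 4 genes were the members that exceeded every other array by more than 1 log2 unit on WT 1, as did 0.967% of all genes tested. Cd3d, Cd2, Lck and Cd5 are given on every array because of this pattern, after their values were seen.

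The differences between genotypes for these genes did not exceed their standard errors, except for Cd3g. They were -0.52 ± 0.61 (SE) for Cd3d, -0.47 ± 0.59 for Cd2, -0.68 ± 0.48 for Cd3g and -0.22 ± 0.36 for Lck. Without WT 1 they became 0.18 ± 0.20, 0.22 ± 0.19, -0.12 ± 0.17 and 0.18 ± 0.16, so that the sign of Cd3d, Cd2 and Lck turned. For these 4 genes the high value on WT 1 lay in the tumour channel. In red alone, WT 1 stood above the median of the other arrays by 3.76 for Cd3d, 3.08 for Cd3g, 2.81 for Cd2 and 1.17 for Lck on a log2 scale, where in green alone it stood at -0.47, -0.05, -0.62 and -0.36. That did not hold for every gene: of the 17 members highest on WT 1, red on WT 1 was above the median of the other arrays for 12 and below it for 5, with green lower still. The 5 were Il7r (red -0.49, green -2.49), Fasl (-1.03, -1.60), Klrb1c (-0.93, -0.95), Nkg7 (-0.36, -0.62) and Cd247 (-0.16, -0.49). No spot of the representing probes of these 4 genes lay in the bright area. Cd3d was well above background on 3 FGFR1 KO arrays and 1 WT array, WT 1, so its values on the other WT arrays are those of a dim spot.

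The bases upstream of these genes are shown because Cd3d and Cd3g, which were high on the same array, are neighbours read in opposite directions, their starts 1355 bases apart on chromosome 9. Each line gives the 250 bases before a RefSeq transcription start (GRCm38.p6), 5′ to 3′ on the gene's strand, with capitals for matches, on either strand, to short core motifs of 3 factor families active in T cells: TGTGGT for RUNX, AGGAAG for ETS and CTTTGA for TCF/LEF.
Cd3d, chr9:44981536-44981785, plus strand: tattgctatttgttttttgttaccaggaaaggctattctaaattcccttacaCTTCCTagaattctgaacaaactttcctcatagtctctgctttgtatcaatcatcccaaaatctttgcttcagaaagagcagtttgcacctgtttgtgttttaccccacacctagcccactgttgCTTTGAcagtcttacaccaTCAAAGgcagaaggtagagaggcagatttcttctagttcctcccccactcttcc
Cd3g, chr9:44980432-44980681, minus strand: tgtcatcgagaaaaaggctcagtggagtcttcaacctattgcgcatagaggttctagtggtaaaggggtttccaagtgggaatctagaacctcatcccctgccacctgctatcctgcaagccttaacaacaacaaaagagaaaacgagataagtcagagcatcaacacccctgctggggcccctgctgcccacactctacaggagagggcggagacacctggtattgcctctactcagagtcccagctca
Lck, chr4:129573642-129573891, minus strand: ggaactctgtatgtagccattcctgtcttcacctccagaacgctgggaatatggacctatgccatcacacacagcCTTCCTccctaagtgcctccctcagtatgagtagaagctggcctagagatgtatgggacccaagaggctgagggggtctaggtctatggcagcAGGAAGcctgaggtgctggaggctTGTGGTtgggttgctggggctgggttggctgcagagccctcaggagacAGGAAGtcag
Lck, chr4:129558373-129558622, minus strand: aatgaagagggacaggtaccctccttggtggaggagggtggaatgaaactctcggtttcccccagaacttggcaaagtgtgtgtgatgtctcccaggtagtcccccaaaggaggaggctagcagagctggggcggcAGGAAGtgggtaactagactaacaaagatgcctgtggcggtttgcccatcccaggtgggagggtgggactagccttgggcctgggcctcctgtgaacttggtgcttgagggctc

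The Cd3d window held 1 ETS match starting at position -198 from the transcription start and 2 TCF/LEF matches at -73 and -54. The Cd3g window held none of the 3 motifs. The first Lck window held 1 RUNX match at -58 and 3 ETS matches, and the second 1 ETS match at -114. No matches overlapped. Of all 32851 windows of this length in the table, 14% held the RUNX motif, 29.5% the ETS motif and 13.8% the TCF/LEF motif. Of the 33 windows listed for 28 of the member genes, 12, 20 and 3 held them. A match is a run of letters and shows no binding.

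Cd5, a surface receptor that dampens T cell receptor signals, read 0.10, -0.08, -0.02 and 0.46 in FGFR1 KO and 1.15, -0.02, -0.14 and -0.06 in WT. WT 1 was again the highest, and the difference was -0.12 ± 0.29 (SE), or 0.19 ± 0.17 without it. Cd3e, the epsilon chain, read 0.05, -0.37, -0.65 and -0.22 against 0.56, -0.26, -0.02 and -0.05, a difference of -0.35 ± 0.22. WT 1 stood 0.79 above the median of the other arrays for Cd3e, where it stood 2.72 above for Cd3d, although both chains belong to 1 complex. Without WT 1 the Cd3e difference was -0.19 ± 0.19.

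The co-receptors varied little. Cd4 read 0.28, 0.02, 0.03 and 0.18 in FGFR1 KO and 0.24, 0.01, -0.06 and 0.17 in WT, a difference of 0.04 ± 0.14 (SE, 95% interval -0.27 to 0.35). Cd8a, the alpha chain of CD8, read -0.25, -0.44, -0.53 and -0.50 against -0.27, -0.61, -0.61 and -0.61, a difference of 0.09 ± 0.14 (interval -0.23 to 0.42). The groups overlapped for both genes, and the intervals bound any change of these probes to less than 0.5 in either direction. Cd8b1, the CD8 beta chain, was the 1 co-receptor with its lowest array in WT 1 (-0.48), and its difference was 0.20 ± 0.15. The representing Cd4 probe and 2 of the 10 spots of the Cd8a probe lay in the bright area. The Cd4 probe was also among the brightest of the members, with a mean normalised red signal of 15.27 on a log2 scale. A dimmer Cd4 probe (10.73) had a difference of -0.03 ± 0.14. Another Cd8a probe, well above background on 2 FGFR1 KO arrays and 0 WT arrays, was not tested. Zap70, Lat and Cd247 had differences of -0.03 ± 0.13, -0.21 ± 0.15 and 0.01 ± 0.14, the last with no value on FGFR1 KO 1.

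Over the 12 T cell receptor genes as a whole, all were tested, 8 lay below 0 and the median difference was -0.16. Without WT 1, 4 lay below 0 and the median was 0.11. On WT 1 the median of the 12 genes was 0.40, where the other 7 arrays ran from -0.19 to 0.01. Their summed normalised red signal ran from 46364 to 65160 intensity units on the FGFR1 KO arrays and from 48341 to 71565 on the WT arrays, with WT 1 the highest. The bright Cd4 probe made up 68.5% of that sum on WT 1. Without Cd4 the sum ran from 14383 to 15949 in FGFR1 KO and from 13865 to 22528 in WT, again highest on WT 1. In red alone 8 of the 12 genes lay below 0, with a median of -0.04, and WT 1 was the highest array for 8.

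For several genes the value on WT 1 differed between probes. Of the 8 members with more than 1 tested probe, Cd2 stood above the median of the other arrays on WT 1 with both probes, by 2.57 with the brighter and 1.30 with the dimmer. Cd247, the zeta chain, stood 0.10 above with its brighter probe and 1.25 with its dimmer one. The same split was seen for Nkg7, a granule protein of cytotoxic cells (0.37 and 1.52), and for Zap70 (0.11 and 0.77). The brighter probes of these 3 genes had mean red signals of 11.38, 12.6 and 11.3, where the dimmer ones had 7.46, 7.24 and 8.93. Il2rb (0.85 and 0.64), Icos (0.72 and 0.95) and Cd4 (0.20 and 0.19) had closer values with both probes. The dimmer probes were often near background on the WT arrays: those of Cd2, Il2rb and Nkg7 were well above it on 1 WT array and those of Cd247 and Icos on 2. The dimmer Klrb1c probe was above it on 0 WT arrays, so its value on WT 1 (-0.44, against 0.19 with the brighter probe) is not a measured difference.

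**Figure D2:**
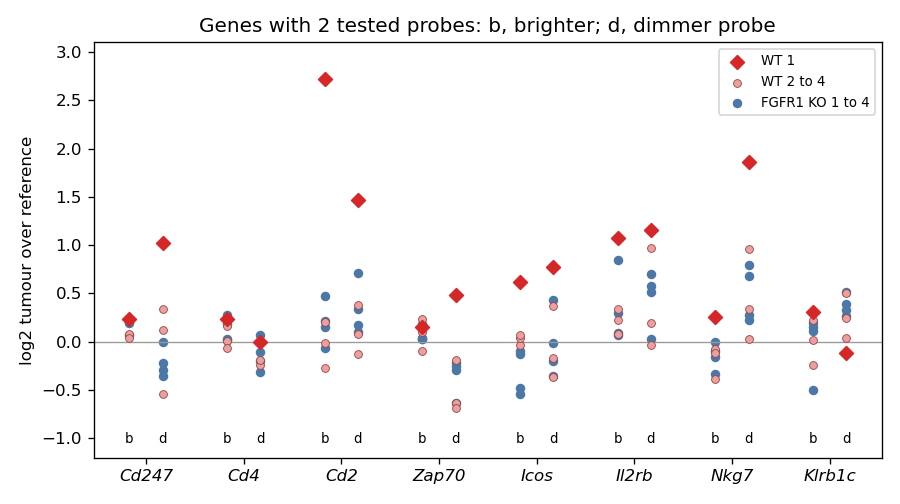
For each of the 8 genes with 2 tested probes, log2 tumour over reference on each array with the brighter (b) and the dimmer (d) probe, with WT 1 marked apart. For Cd247, Nkg7 and Zap70, WT 1 lies further above the bulk of the arrays with the dimmer probe than with the brighter. For Cd4 it lies within the range of the other arrays with both probes.

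Across the 29 members the range over the 8 arrays tended to be smaller where the mean red signal was higher (Spearman -0.45 across genes, which are not independent replicates), although Gzmk, the brightest, had a range of 2.03. Over all 16761 genes the correlation was -0.16. A range under 0.5 was seen for 6 members (Cd247, Cd4, Cd8a, Zap70, Prf1 and Tbx21), and 5 of them had a mean red signal over 10.

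Of the co-stimulatory and checkpoint receptors, 3 of 7 could be tested and all 3 lay below 0, with a median of -0.40. Icos, the inducible co-stimulator of activated T cells, read -0.54, -0.12, -0.48 and -0.10 in FGFR1 KO and 0.61, -0.03, 0.04 and 0.07 in WT. The groups did not overlap, but the gap between the highest FGFR1 KO array and the lowest WT array was small beside the spread in either group. The difference was -0.49 ± 0.19 (SE, 95% interval -0.92 to -0.05), with a limma p of 0.0329 and an adjusted p of 0.554. An exact two-sided permutation test gave p = 0.0286, the smallest that 4 arrays against 4 allow. Without WT 1 the difference was -0.34 ± 0.17. A second, dimmer Icos probe overlapped between the groups, with a difference of -0.19 ± 0.28.

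Cd28, the main co-stimulatory receptor of resting T cells, read -0.02, -0.60, -0.61 and -0.65 against 0.25, -0.05, -0.21 and -0.28. FGFR1 KO 1 lay among the WT arrays, and the other FGFR1 KO arrays lay below all of them. The difference was -0.40 ± 0.19 (exact permutation p = 0.114), and -0.29 ± 0.20 without WT 1. Ctla4, the inhibitory counterpart of Cd28, read -0.03, -0.34, 0.14 and 0.16 against 0.60, -0.13, -0.10 and -0.01, with a difference of -0.11 ± 0.20 that became 0.06 ± 0.17 without WT 1. Its probe lay in the bright area.

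The remaining checkpoint receptors were near the detection limit. Pdcd1 (PD-1), Havcr2 (TIM-3) and Tigit were each well above background on 3 FGFR1 KO arrays and 0 WT arrays, and Lag3 on 1 FGFR1 KO array and 0 WT arrays. A bound on the fold, set against the lowest signal well above background on each WT array, was under 1 for all 4, so no fold can be given.

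The regulatory and cytokine receptor genes showed no shared direction, with 2 of 4 below 0 and a median of -0.04. Foxp3 read 0.27, 0.08, 0.24 and 0.37 in FGFR1 KO and 0.10, -0.15, 0.19 and 0.22 in WT, a difference of 0.15 ± 0.14 with overlapping groups. Without WT 2 it was 0.07, and in red alone it was 0.35. Il7r, the receptor chain for the survival cytokine IL-7, read -0.66, -0.20, 0.38 and 0.10 against 1.24, -0.32, 1.01 and 0.07. Its difference was -0.60 ± 0.37 (exact permutation p = 0.257), and WT 1 and WT 3 were the highest arrays. Without WT 1 it was -0.35 ± 0.36, and in red alone it was 0.43, in the opposite direction. The probe lay in the bright area, but on WT 1 its red signal was not high: it stood at -0.49 from the median of the other arrays, and green at -2.49. The IL-2 receptor chains differed by 0.01 ± 0.19 (Il2ra) and -0.10 ± 0.26 (Il2rb), the latter with its highest array in WT 1 (1.08).

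Cytotoxic genes were flat or scattered, with 3 of the 6 tested below 0 and a median of -0.01. Perforin (Prf1) read 0.18, -0.12, 0.01 and 0.11 in FGFR1 KO and 0.02, -0.003, 0.003 and 0.10 in WT. Its difference was 0.01 ± 0.13 (95% interval -0.27 to 0.30). Granzyme A (Gzma) read -0.16, -0.45, 0.06 and -0.56 in FGFR1 KO and -0.12, 0.40, -0.02 and 0.24 in WT. FGFR1 KO 3 overlapped the WT arrays, the difference was -0.40 ± 0.19 (exact permutation p = 0.114), and it was -0.48 ± 0.20 without WT 1, so this gene did not follow the WT 1 pattern. With the scanner's own log ratio it was -0.19, and in red alone also -0.19. Granzyme K (Gzmk) scattered most of the 6, from 0.28 to 2.31, with its highest values on WT 3 (2.31) and FGFR1 KO 4 (2.24) and a difference of 0.14 ± 0.50. The probes of Gzma, Gzmk and Fasl lay in the bright area. Ifng (interferon gamma), Fasl and Nkg7 differed by 0.11 ± 0.18, -0.02 ± 0.19 and -0.06 ± 0.17. Gzmb was well above background on 0 of 8 arrays.

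All 4 NK cell genes that could be tested lay below 0, with a median of -0.23. In red alone 1 of the 4 lay below 0 and the median was 0.17, where the median of all genes was 0.10. Ncr1 (NKp46), a receptor largely restricted to NK cells, read -0.08, -0.21, -0.04 and -0.10 in FGFR1 KO and 0.13, 1.33, 0.08 and 0.49 in WT. The groups did not overlap, and WT 2, the array where muscle genes were highest, was the highest. The difference was -0.61 ± 0.27 (SE, 95% interval -1.21 to -0.01), with a limma p of 0.0466, an adjusted p of 0.582 and an exact permutation p of 0.0286. Without WT 1 it was -0.74 ± 0.28, but without WT 2 it was -0.34, and with the scanner's own log ratio it was -0.09. In the red signal alone it was 0.13, opposite in sign but near the median of all genes on that scale (0.10). The probe lay in the bright area and was well above background on 2 WT arrays.

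Eomes, a T-box factor of NK and memory T cells, read 0.94, 0.31, 0.42 and 0.57 against 1.36, 0.33, 1.30 and 0.76, a difference of -0.38 ± 0.26 (exact permutation p = 0.229). It was -0.24 without WT 1, -0.58 without WT 2 and -0.09 in red alone. WT 1 and WT 3 were the highest arrays, and the probe lay in the bright area. Klrb1c (NK1.1) and Tbx21 (T-bet) differed by -0.09 ± 0.20 and -0.01 ± 0.14. Klrd1 and Klrk1 were well above background on 0 of 8 arrays. Over all members, 10 of the 29 representing probes had a spot in the bright area, namely those of Cd4, Cd8a, Ctla4, Il7r, Gzma, Gzmk, Fasl, Ncr1, Eomes and Tbx21, and what part that area has in their values was not tested.

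**Figure D3:**
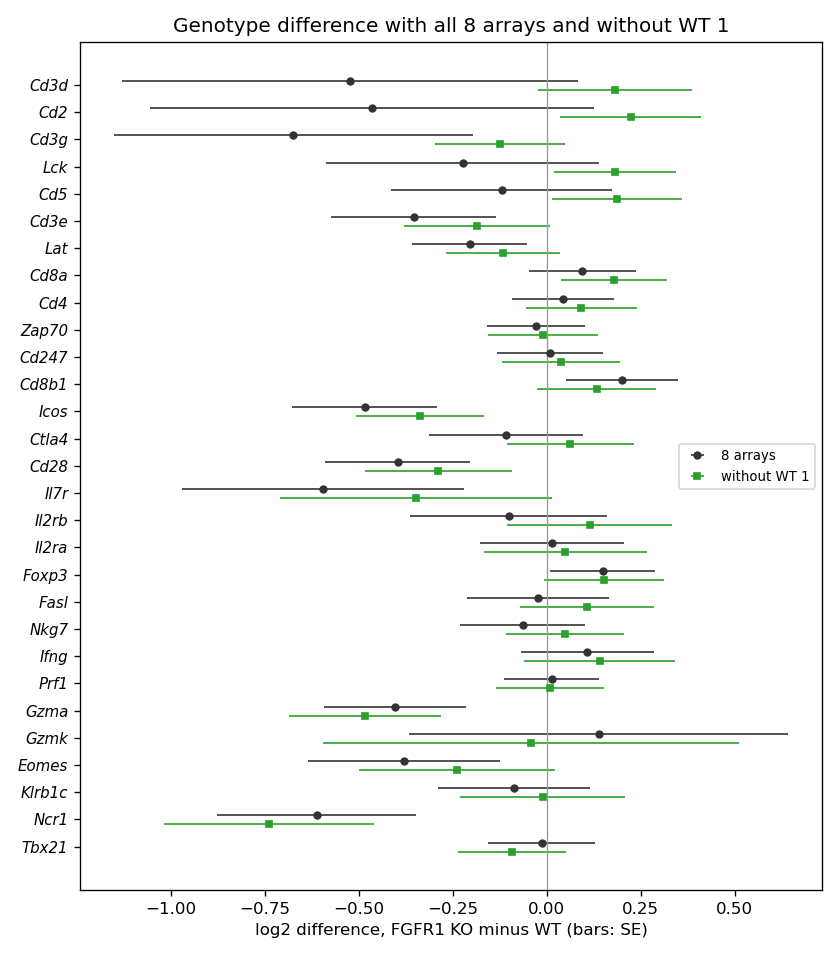
Log2 difference between FGFR1 KO and WT for the 29 tested genes (points, with SE bars), from all 8 arrays and without WT 1. Leaving out WT 1 moved Cd3d from -0.52 to 0.18 and shortened its bar. Without WT 1, 13 of the 29 lay below 0, Gzma and Ncr1 among them.

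Other genes of the same pathways, none of them members, were read from the same fit. Of 41 further T cell genes, 28 were tested, 0 were called, 21 lay below 0 and the median was -0.34. WT 1 was the highest array for 17 of the 28, and without it the median was -0.06. The smallest p belonged to Ccr7, the receptor that guides lymphocytes into lymph nodes, which read -0.56 to 0.12 in FGFR1 KO and 2.29, 1.39, 0.61 and 0.31 in WT (-1.27 ± 0.40, adjusted p = 0.455), and to Thy1, a T cell antigen also made by fibroblasts (-0.71 ± 0.25, adjusted p = 0.504). Of 25 further checkpoint genes and ligands, 15 were tested, 0 were called and 8 lay below 0 (median -0.01, or 0.05 without WT 1). Icosl, the ligand of Icos, was at -0.80 ± 0.47, with 2.46 on WT 1, and at -0.27 without that array. Cd200, an inhibitory ligand, was at -0.68 ± 0.36, or -0.76 without WT 1. Of 33 further NK and cytotoxic genes, 22 were tested, 0 were called and 16 lay below 0 (median -0.18, or -0.03 without WT 1), with Klrc1, an NK receptor, at -0.42 ± 0.20 and Il12rb2, an IL-12 receptor chain, at 0.33 ± 0.19. Among the genes named in this paragraph, Ccr7, Cd200 and Klrc1 had a probe with a spot in the bright area.

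Markers of other cells moved with the T cell genes on WT 1. B cell genes, 11 of 14 tested, had WT 1 as the highest array for 10, with a median of 1.22 on WT 1 and -0.77 to -0.10 on the other arrays. Their summed red signal ran from 6460 to 16228 intensity units in FGFR1 KO and from 12071 to 44452 in WT, the highest on WT 1. In red alone WT 1 was the highest array for all 11. Among them Ms4a1 (CD20), named after its values were seen, read 2.46 on WT 1 and -1.74 to -0.95 elsewhere. Of the 2 with the highest red signal, Cd37 read 1.05 on WT 1 and at most 0.19 elsewhere. The other, Pax5, was the B cell gene whose ratio was not highest on WT 1, at -0.003 there and 0.17 on WT 3. Of 15 genes common to leukocytes, WT 1 was the highest array for 14, with a median of 1.03 against -0.92 to -0.28 elsewhere and a summed red signal of 52552 against 20826 at most in FGFR1 KO. In red alone it was the highest array for 13 of the 15. Lymph node genes, 8 of 10 tested, had WT 1 as the highest array for 5 and a median of 0.66 on it against -0.17 to 0.03 elsewhere. The 5 were Ltb, Lta, Fcer2a and Cr2, which lymphocytes also make, and the chemokine Ccl19 (0.13 on WT 1, at most -0.03 elsewhere). The 3 genes of lymph node vessels were not highest there: Chst4 read 0.01 on WT 1 and 0.63 on WT 2, Madcam1 0.02 and 0.28 on WT 4, and Glycam1, which mammary epithelium also makes, 4.82 and 7.62 on FGFR1 KO 2. Among the B cell genes tested, the probes of Blk, Cd79a, Vpreb3 and Cd37 had a spot in the bright area. Among the leukocyte genes those of Cd53, Cd48, Ptprc, Arhgdib, Lcp1 and Rac2 did, and among the lymph node genes those of Ltb, Lta, Fcer2a and Madcam1. The other tested genes of these lists had none there, and what part that area has in these values was not tested. The genes outside the 2 with the highest red signal are named here after their values were seen.

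Macrophage, adipocyte and epithelial genes ordered the arrays in other ways. Macrophage genes, 13 tested, had WT 1 as the highest array for 4, with medians from 0.07 to 0.93 and the highest on WT 3. Of these genes Adgre1, Mpeg1, C1qb, C1qc and Msr1 had a probe with a spot in the area that was bright on WT 1 and WT 3. Adipocyte genes were high on WT 2 as well as WT 1 (3.79 and 2.68, against 0.11 to 0.41 elsewhere), while T cell receptor genes on WT 2 had a median of -0.18. Epithelial genes were lower on WT 1 (1.22) and WT 2 (-0.52) than on the other arrays (1.59 to 2.55). Fibroblast genes had a difference below 0 for all 10 tested, 0 of them called, with a median of -1.67 and -1.33 without WT 1 and WT 2, and WT 1 was the highest array for 6. The part of these other cells in the T cell result was not tested.

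**Figure D4:**
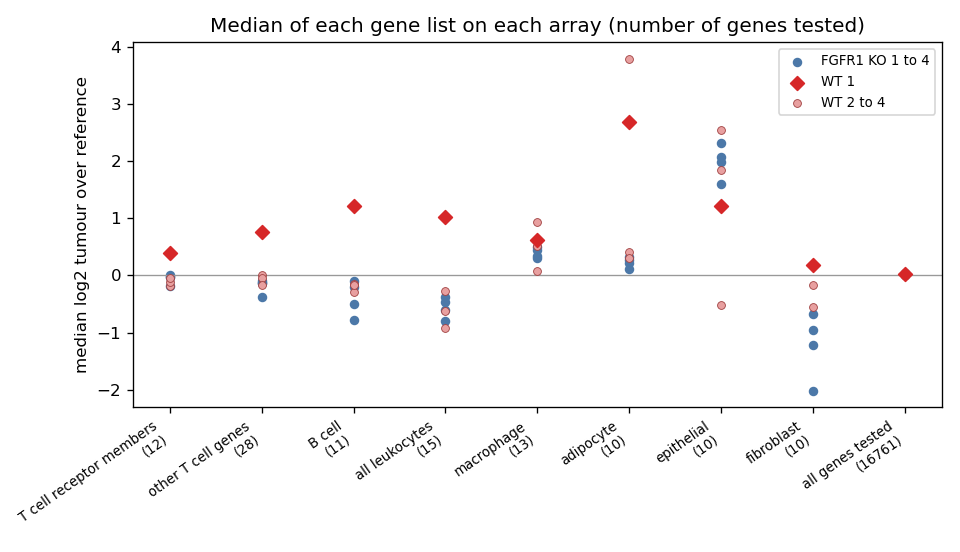
Median log2 tumour over reference of 8 gene lists and of all genes tested (number of genes in brackets) on each array. The T cell, B cell and leukocyte lists are highest on WT 1 (0.40 for T cell receptor genes, 1.22 for B cell genes, 1.03 for leukocyte genes) and overlap on the other 7 arrays.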

How the data were processed

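The 8 two-colour arrays were scanned and read with Agilent Feature Extraction 11.0.1.1, per the file headers. The deposited median signals and backgrounds are spot intensities on a linear scale without background correction. The deposited ratio column is log10 of red over green after the scanner software's own correction, and the deposited series matrix holds log2 of red over green (r of 0.985 to 0.991 with the values computed here, column medians from -0.0155 to 0.0152), with its normalisation and centring not given in the sources used here. The label field names cy3 only, while the labelling protocol puts tumour RNA in red. Within groups green varied less (median SD 0.195 and 0.231) than red (0.350 and 0.519), and green was taken as the reference.

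Values were computed with limma 3.58.1 (R 4.3.3): normexp background correction with an offset of 50 was applied, arrays were normalised by loess with control and outlier spots at weight 0, and replicate spots were averaged. Of 55681 probes, 39795 were tested: those whose red signal was well above background on 4 or more arrays and that had 3 or more values per group. For 3 members (Cd3d, Ifng and Klrb1c) fewer than 2 WT arrays were above background, so they passed mainly through FGFR1 KO arrays. A gene's brightest tested probe represented it (16761 genes). FGFR1 KO was compared with WT by lmFit and eBayes, two-sided, p-values were adjusted by Benjamini-Hochberg across every tested probe (threshold 0.05), and the scripts were tested on simulated data. Names and promoters came from RefSeq tables of GRCm38.p6. The number of arrays limits the precision. Every member is accounted for, and values on each array are given for 11 genes chosen by role where a tested probe exists and for up to 8 with the smallest p. In each further pathway list up to 2 genes with the smallest p are named. In each cell type list up to 2 with the highest red signal could be named. Alternatives changed the values used, filters, arrays, probes and model. The members, lists and tests were chosen with earlier results of these data known.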

Additional observations from a re-analysis of the deposited data

Results flagged for a closer look

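Of 57 groups of 4 arrays examined for an array far from the other 3, 11 had one. The rule flags about 1 in 20 groups by chance if the groups are independent. These groups are genes read on the same arrays, so the count cannot be set against that rate. In 8 of the 11 the array was WT 1, and it was the highest in all 8. These were Cd3d (2.95 on WT 1), Cd2 (2.72), Cd5 (1.15), Lck (1.07), Cd3g (0.93), Icos (0.61), Ctla4 (0.60) and Cd8a (-0.27, against -0.61 on the other WT arrays). The other 3 lay in FGFR1 KO: Zap70 was high on FGFR1 KO 3 (0.18), Cd28 was high on FGFR1 KO 1 (-0.0197), and Klrb1c was low on FGFR1 KO 3 (-0.50).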

How the results depend on the processing

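No member was called under any of the alternatives run. Over the array, 4 probes were called. The count was 0 with the scanner's log ratio, red alone, probes above background on all arrays, the bright area left out, WT 1 and WT 2 left out, or a trended robust fit, 139 with no filter on dim probes and 11 with array weights. With the replicate number as a block it was 0, the members' median was -0.11 and 21 lay below 0. Same-numbered arrays correlated at -0.11 to 0.11 and 2 of 4 correlated best with their own number. These few values cannot show whether the numbers paired the samples. The number was also the slide column in both groups. Leaving out 1 array at a time gave 0 to 1 probes called, a median of -0.1914 to 0.0377, 13 to 23 members below 0, 2 to 5 without overlap (5 without FGFR1 KO 2) and WT 1 highest for 17 to 19. In red alone the median was 0.0627, 12 members lay below 0, 0 had groups that did not overlap and WT 1 was highest for 11 (all genes, 12.5%). Members without overlap numbered 1 with the scanner's ratio, with probes above background on all arrays, with the bright area left out and with the mean over a gene's probes. No share over all genes is given for the counts without overlap under these alternatives. They cannot be set against the 2.5% and 1.85% of the main setting, and groups of fewer arrays separate more easily. Leaving out the bright area kept 21 members, 13 of them below 0 and 13 highest on WT 1. The sign turned in red alone for Cd4 (-0.11), Ctla4 (0.21), Ncr1 (0.13) and Il7r (0.43), on a scale where the median of all genes was 0.10. It also turned for Cd4 without FGFR1 KO 1 (-0.0073) or WT 3 (-0.0067), with a range of -0.0073 to 0.092 over single arrays left out, and for Ctla4 without WT 1 (range -0.1823 to 0.0629, the latter without WT 1) or without WT 1 and WT 2 (0.0365). For Prf1 it turned without FGFR1 KO 1 (range -0.0316 to 0.0664, the former without that array), without FGFR1 KO 4 (-0.0078), without WT 1 and WT 2 (-0.0098) and with array weights (-0.0034). The cause was not tested. Counts of WT 1 as the highest array and list values without arrays or in red alone were added after seeing the data. Signal over background limits the 7 untested members and the dim probes on the WT arrays.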
